A study of Homo sapiens with 15 samples.

Results

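The regions described here are the broad WDR5 peaks of HEK293 cells, a human embryonic kidney line. They were chosen by their measured width alone, as the peaks of the deposited WDR5 list that are wider than the commonest width in that list, a limit given in bp with the processing. Of the 17171 WDR5 peaks 1456 met this rule (8.48%), and the other 15715 are called narrower peaks below. Width, file position and neighbouring WDR5 calls all come from that one list, so they are described and not tested. Overlap with the MYC lists comes from other libraries, made with another antibody from other cells.

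Chromatin immunoprecipitation followed by sequencing (ChIP-seq) was done on 15 libraries in 5 groups of 3 independent biological replicates. In 3 of the groups the cells had received a retrovirus that encoded wild-type MYC (WT-MYC), a mutant MYC that is deficient in WDR5 binding (WBM-MYC), both with a FLAG tag, or nothing (the empty vector), and the chromatin was precipitated with the M2 anti-FLAG antibody. The remaining groups were HEK293 cells without a retrovirus, precipitated with an antibody against WDR5 or with purified rabbit IgG as the negative control. Peak lists of WT-MYC (2527 peaks), WBM-MYC (690 peaks) and WDR5 were analysed, with 1 list per group. No spread between replicates can be given, read depth is unknown, and every interval below covers counting error over peaks only. WDR5 was mapped in cells that made no tagged MYC, so an overlap joins sites from different cells. All positions are hg19, counted from 1. No hg19 gene annotation or sequence was used here, so the peaks are named by position and not by gene.

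WDR5 is a scaffold of beta-propeller shape that holds together the complexes which methylate histone H3 at active promoters. MYC is a transcription factor that binds DNA as a dimer with MAX, mostly at promoters of growth genes, and WDR5 is one of the chromatin proteins that it contacts. The width of a ChIP-seq peak reflects both how far along the DNA the protein is found and how the peak caller sets its boundaries. Chromatin was sheared to a mean length of 200 bp, per the labels. All broad peaks span more than 1 mean fragment, but so do most narrower peaks, whose median width was 401 bp.

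Broad peaks were mostly only somewhat wider than the limit, with a thin tail of very wide ones. The median width was 723 bp, the interquartile range 664 to 832 bp and the widest peak 1704 bp. The narrower peaks had a median of 401 bp. Widths above 800 bp were found in 440 broad peaks (30.2%), above 1000 bp in 129 (8.86%) and above 1500 bp in 7. Together the broad peaks made up 14.4% of the summed width of the list. At the limit itself the counts were uneven, since 3482 peaks had exactly that width, 7 were 1 bp narrower and 13 were 1 bp wider. The limit therefore lies at the edge of a pile-up of equal widths, and peaks of exactly that width, here called limit-width peaks, are shown separately where they matter.

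**Figure D1:**
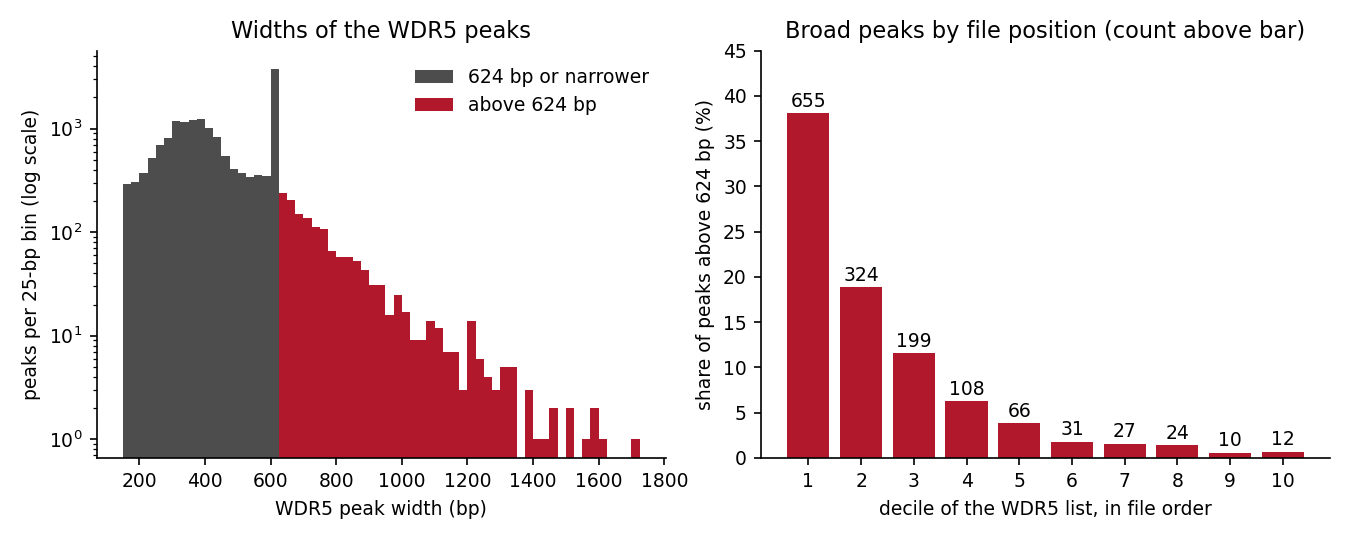
Left, number of WDR5 peaks per 25-bp bin of width (log scale), with the 1456 peaks above the limit in red and the narrower ones in grey. Right, share of each decile of the WDR5 list that was broad, with the count above each bar. The spike at the limit holds 3482 peaks, and the share of broad peaks falls from 38.1% in the first decile to 0.699% in the last.

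Broad peaks led the WDR5 list. The list is not sorted by position on the chromosomes and no source used here says how it is ordered. All of the first 50 peaks in the file were broad, as were 95 of the first 100 and 271 of the first 500. The first narrower peak, 520 bp wide, stood on line 91. Over the 10 equal parts of the file, here called deciles, the count of broad peaks fell from 655 of 1718 (38.1%) to 324, 199, 108, 66, 31, 27, 24, 10 and 12 of 1717. Deciles 1 to 5 held 1352 of the 1456 (92.9%). The median line was 2024 for broad peaks, 7456 for peaks below the limit and 14678 for limit-width peaks. Broad peaks thus stood mostly early in the file and limit-width peaks mostly late.

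The first 5 lines of the file were wide sites, each with WT-MYC, which 309 of the 655 broad peaks in the first decile (47.2%) carried. The 5 sites were chr1:93297306-93298295 (990 bp), chr17:80230828-80231943 (1116 bp), chr19:1437986-1439201 (1216 bp), chr19:3984808-3985690 (883 bp) and chr19:49121804-49123276 (1473 bp). On chr1:93297306-93298295 the WT-MYC peak spanned 93297546 to 93298041, and the centres of both peaks lay 7 bp apart. The peak at chr19:1437986-1439201 carried 2 WT-MYC peaks, with centres 13 and 186 bp from its own, and a WBM-MYC peak 192 bp away. The peak at chr19:49121804-49123276 also carried 2 WT-MYC peaks, at 29.5 and 170.5 bp, and no WBM-MYC peak. In each of these pairs the WT-MYC peaks overlapped each other. Of these 5 sites only chr19:1437986-1439201 had WBM-MYC.

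Of the 10 widest peaks, 7 had neither form of MYC, against 896 of all 1456 broad peaks (61.5%). In the larger class of 1201 to 1704 bp, 32 of 51 peaks carried WT-MYC, so these 10 do not stand for that class. The widest, chr17:79824783-79826486 (1704 bp), stood on line 8002 in the fifth decile. It was followed by chr1:67895282-67896901 (1620 bp, line 83), and neither had a MYC peak. The third, chrX:41192280-41193860 (1581 bp), carried WT-MYC near its upper end, with the centres 674.5 bp apart. The fourth, chr9:135544882-135546456 (1575 bp), carried both forms, WT-MYC 448.5 bp and WBM-MYC 394.5 bp from its centre. Next came chr22:39714933-39716494 (1562 bp), chr6:32939742-32941256 (1515 bp) and chr6:111804067-111805571 (1505 bp), all 3 without MYC. The remaining 3 were chr19:49121804-49123276 and chr22:38712600-38714072, both 1473 bp wide, and chr11:694672-696120 (1449 bp), of which the last 2 had no MYC.

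WT-MYC was found more often on broad than on narrower WDR5 peaks. At least 1 bp was shared with a WT-MYC peak by 532 of the 1456 broad peaks (36.5%, exact 95% interval 34.1 to 39.1%) and by 1797 of the 15715 narrower ones (11.4%, 10.9 to 11.9%). The difference was 25.1 percentage points (Newcombe 95% interval 22.6 to 27.7), and over all WDR5 peaks the share was 13.6%. WBM-MYC gave the same direction at a lower level, from a list that is also shorter. It was found on 168 broad peaks (11.5%, 9.94 to 13.3%) and on 415 narrower ones (2.64%, 2.40 to 2.90%), a difference of 8.90 points (7.34 to 10.7), with 3.40% over all WDR5 peaks. No p-values are given, since the question was put with earlier results of these data known.

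The WT-MYC comparison depended on how peaks at the limit were counted. Limit-width peaks had the lowest shares, 4.31% with WT-MYC (150 of 3482) and 0.804% with WBM-MYC (28 of 3482). When these peaks were counted with the broad ones, the WT-MYC difference shrank to 0.348 points (-0.772 to 1.50), so that the call was lost, and the WBM-MYC difference to 0.806 points (0.201 to 1.46). Against peaks below the limit alone the differences were 23.1 points (20.6 to 25.7) and 8.38 points (6.80 to 10.1).

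A wider peak has more bases on which a MYC peak can fall, so the overlap was also counted over equal lengths. In a central window on each WDR5 peak, as long as the narrowest peak of the list, WT-MYC was found on 501 broad peaks (34.4%, 31.97 to 36.9%) and on 1645 narrower ones (10.5%, 9.99 to 10.96%), with 12.5% over all WDR5 peaks. For WBM-MYC the central shares were 10.8% and 2.39%, with 3.10% over all. The WDR5 centre itself lay inside a WT-MYC peak in 32.0% of broad and 9.49% of narrower peaks, with 11.4% over all, and inside a WBM-MYC peak in 10.03 and 2.18%, with 2.84% over all. Differences were thus 23.9 points (21.5 to 26.5) for WT-MYC and 8.39 points (6.88 to 10.1) for WBM-MYC in equal windows, close to those over whole peaks. Per Mb of WDR5 peak, 492 WT-MYC centres lay in broad, 289 in peaks below the limit and 63.9 in limit-width peaks. The matching densities of WBM-MYC centres were 152, 67.6 and 10.5 per Mb.

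**Figure D2:**
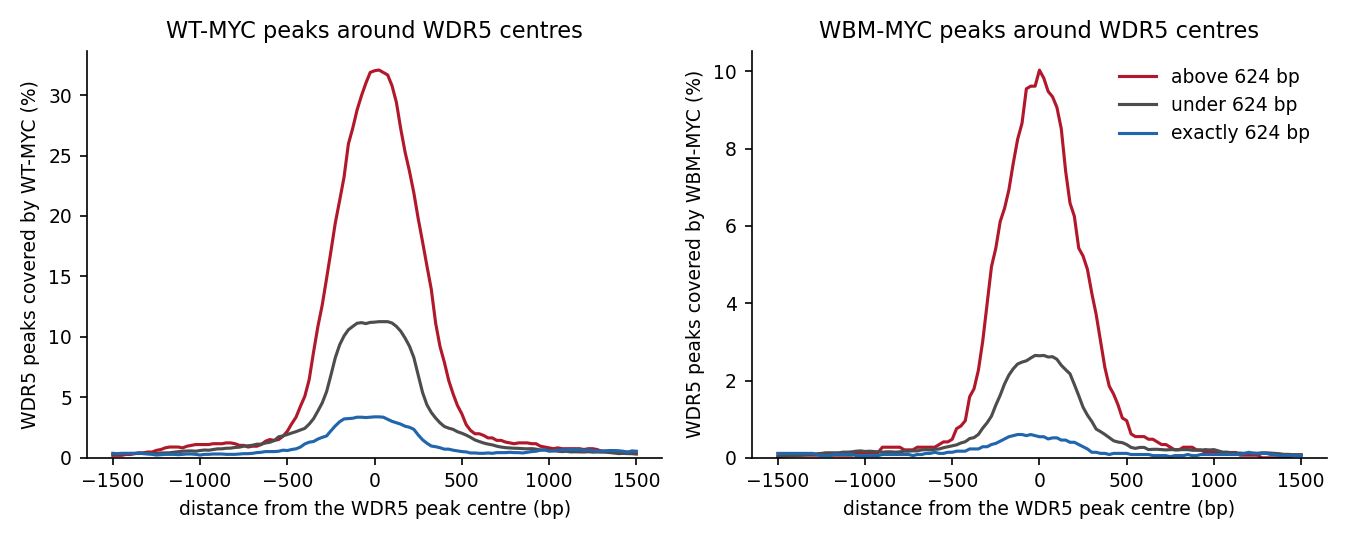
Share of WDR5 peaks covered by a WT-MYC (left) or WBM-MYC (right) peak at each distance from the WDR5 centre, in steps of 25 bp, for peaks above, under and of exactly the limit width. Coverage by WT-MYC is 32.0% at the centre of broad peaks. At 500 bp it is 3.64% on the side of higher coordinates and 2.20% on the side of lower ones.

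Within deciles of the file the WT-MYC difference was in the same direction but smaller than over the whole list, with no steady course from the first to the last. In the first decile 47.2% of broad peaks (309 of 655, 43.3 to 51.1%) and 29.5% of narrower ones (314 of 1063, 26.8 to 32.4%) had WT-MYC. In the second the shares were 31.8 and 21.3%, and in the fifth 25.8 and 10.4%. The broad share was the higher in all 10 deciles, by 1.73 to 21.8 points, and the interval of the difference lay above 0 in 8 of them. Exceptions were decile 6 (1.73 points, -4.75 to 17.0), with 31 broad peaks, and decile 9 (14.4 points, -0.00549 to 45.4), with 10. Late deciles held few broad peaks, and most of these overlapped another WDR5 peak, so the deciles are not independent of each other. Such overlaps were found for 18 of 24 broad peaks in decile 8, 9 of 10 in decile 9 and 12 of 12 in decile 10. In deciles 9 and 10 the median width of the narrower peaks was the limit itself. Stratified by decile, the WT-MYC difference was 13.8 points (Mantel-Haenszel estimate, 11.1 to 16.5), against 25.1 without strata. Counted at the WDR5 centre and stratified together, it was 12.1 points (9.51 to 14.7).

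For WBM-MYC the stratified difference was 4.56 points (2.85 to 6.27), and 3.75 points (2.15 to 5.35) when counted at the WDR5 centre. In the first decile 16.0% of broad (105 of 655) and 10.4% of narrower peaks (111 of 1063) carried it. The interval lay above 0 in 5 of the 10 deciles. Among these were deciles 7 and 9, where only 4 of 27 and 1 of 10 broad peaks carried WBM-MYC. In deciles 6 and 10 no broad peak had WBM-MYC, among 31 and 12, which by the exact interval allows shares of up to 11.2 and 26.5%.

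**Figure D3:**
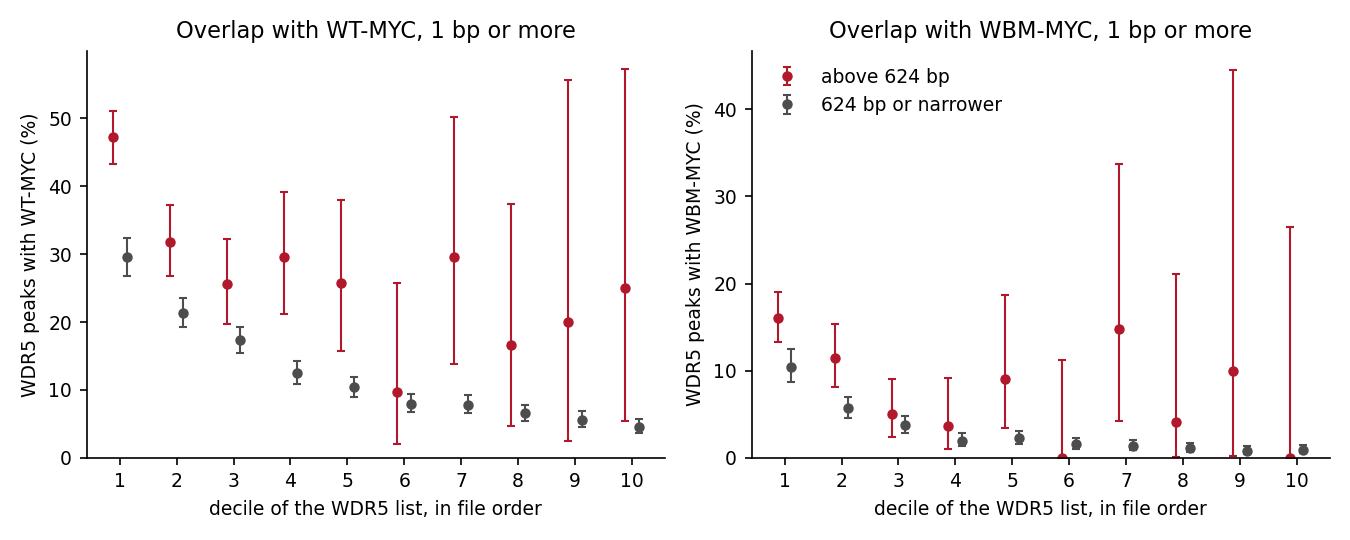
Share of broad (red) and narrower (grey) WDR5 peaks that shared at least 1 bp with WT-MYC (left) or WBM-MYC (right), by decile of the WDR5 list; bars are exact 95% intervals. The broad share with WT-MYC lies above the narrower one in all 10 deciles, from 47.2 against 29.5% in the first. In deciles 8 to 10 most of the few broad peaks overlapped another WDR5 peak.

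Among the broad peaks themselves, WT-MYC was found more often on the wider ones. It was on 28.7% of peaks up to 700 bp (172 of 599, 25.1 to 32.5%), 33.3% of 701 to 800 bp (139 of 417), 49.3% of 801 to 900 bp (103 of 209), 43.1% of 901 to 1000 bp (44 of 102), 53.8% of 1001 to 1200 bp (42 of 78) and 62.7% of 1201 to 1704 bp (32 of 51, 48.1 to 75.9%). Over the central window alone the rise stopped earlier. It was found there on 27.0% (162 of 599), 31.4% (131 of 417), 47.8% (100 of 209), 42.2% (43 of 102), 39 of 78 and 26 of 51. On both counts the largest step between classes came above 800 bp, and the intervals of the classes beyond it overlapped. Within the first decile of the file the first and last classes had 38.1% (90 of 236, 31.9 to 44.7%) and 66.7% (24 of 36, 49.0 to 81.4%). Over the central window these shares were 36.0% (85 of 236) and 58.3% (21 of 36). WBM-MYC did not rise steadily from class to class. Its shares were 9.85, 8.39, 20.1, 11.8, 12.8 and 19.6%, highest at 801 to 900 bp (42 of 209, 14.9 to 26.2%). Every class above 800 bp had a higher share than those up to 800 bp, and peaks above 800 bp together had 74 of 440 (16.8%). Only at 801 to 900 bp did the interval lie above those of both classes up to 800 bp.

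**Figure D4:**
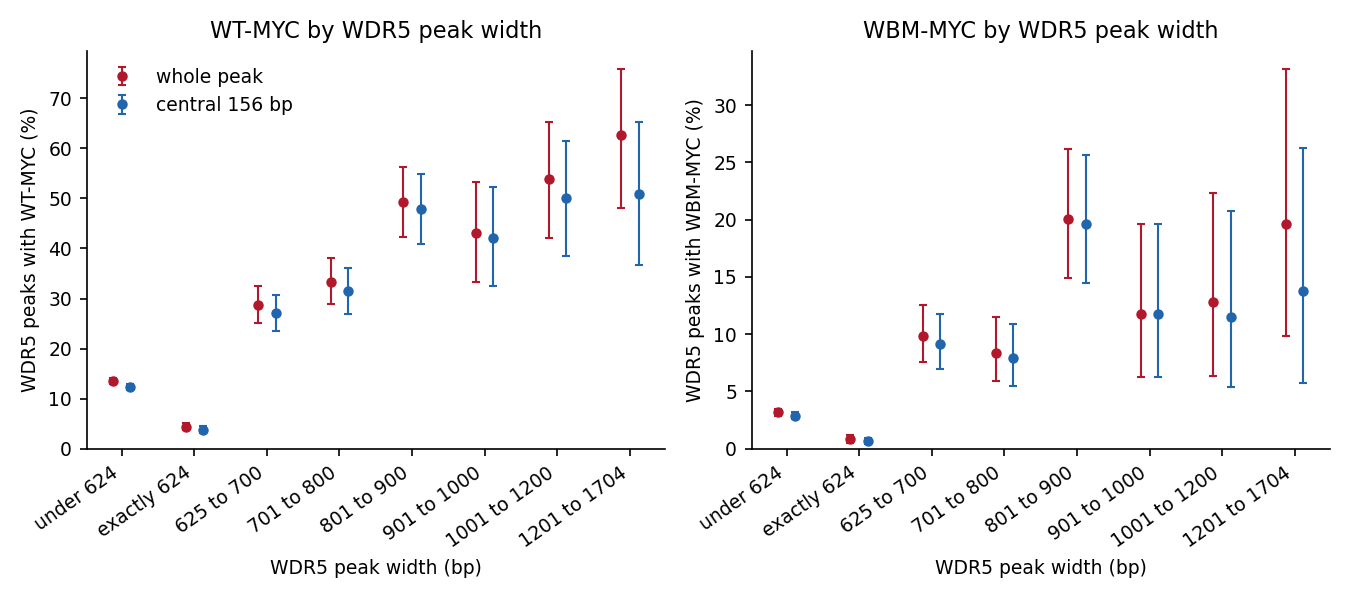
Share of WDR5 peaks with WT-MYC (left) or WBM-MYC (right) by WDR5 peak width, over the whole peak (red) and over its central window (blue), with exact 95% intervals. WT-MYC is at 4.31% on limit-width peaks and reaches 62.7% over the whole peak in the widest class.

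By MYC state the broad peaks fell into 4 classes. Neither form was found on 896 (61.5%), WT-MYC alone on 392 (26.9%), both on 140 (9.62%) and WBM-MYC alone on 28 (1.92%). On narrower peaks the shares were 87.8, 9.54, 1.90 and 0.745%, in the same order. The majority of broad WDR5 peaks thus carried no called MYC peak, but a smaller majority than among narrower peaks. Of the broad peaks with WT-MYC, 26.3% also had WBM-MYC (140 of 532, 22.6 to 30.3%), against 16.6% of the narrower ones with WT-MYC (298 of 1797, 14.9 to 18.4%) and 18.8% over all WDR5 peaks with WT-MYC. The difference was 9.73 points (5.75 to 13.97), but stratified by decile it was 3.97 points (-0.498 to 8.43), so that the call was lost at equal file position. Among WBM-MYC carriers, WT-MYC was present on 83.3% of broad (140 of 168) and 71.8% of narrower peaks (298 of 415), 11.5 points apart (3.95 to 18.2). Over all WDR5 peaks with WBM-MYC it was present on 438 of 583. This last difference was not stratified by decile.

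Pairs of WT-MYC peaks on 1 WDR5 peak were uncommon. They were found on 41 of the 532 broad peaks with WT-MYC (7.71%, 5.59 to 10.3%) and on 73 of the 1797 narrower ones (4.06%, 3.20 to 5.08%), a difference of 3.64 points (1.42 to 6.35). No WDR5 peak held more than 2. The paired WT-MYC peaks overlapped each other at chr19:1437986-1439201, chr19:49121804-49123276 and chr1:935172-936439. At the second of these they spanned 49122263 to 49122758 and 49122463 to 49122958. A pair is thus a count of calls, and whether it stands for separate sites was not tested. This count was not made over equal lengths and was not stratified by decile.

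In file order, the first 10 broad peaks with both forms of MYC stood on lines 3 to 121. The list opens with chr19:1437986-1439201, already described, and chr1:45096951-45098363 (1413 bp, line 9), where WT-MYC and WBM-MYC lay 78.5 and 70.5 bp from the WDR5 centre. At chr20:37063373-37064232 (860 bp, line 46) the nearest WBM-MYC centre was 1 bp and the WT-MYC centre 125 bp away, and a second WBM-MYC peak was present. At chrX:118924967-118926215 (1249 bp, line 58) the distances were 104.5 bp for WT-MYC and 50.5 bp for WBM-MYC. The others were chr8:146017018-146018216, chr9:135544882-135546456, chr11:63438675-63439519, chr21:45079086-45079767, chr5:177631080-177631830 and chr15:102264204-102264838. In 9 of the 10 the centres of both forms lay within 200 bp of the WDR5 centre, the exception being the 1575-bp peak on chromosome 9.

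MYC sat near the middle of broad peaks. The nearest WT-MYC centre was a median of 100.8 bp from the WDR5 centre (interquartile range 51.4 to 173 bp, 532 peaks), and 263 of them (49.4%) were within 100 bp. Divided by the distance from the WDR5 centre to the edge of its peak, the median was 0.264 on broad and 0.332 on narrower peaks. On narrower peaks the median was 74.5 bp (1797 peaks). The WT-MYC centre lay outside the WDR5 peak for 16 broad peaks (3.01%) and for 357 narrower ones (19.9%). For WBM-MYC the median on broad peaks was 103 bp (168 peaks). The peak width bounds these distances, so they are given without a test. Over all broad peaks WT-MYC centres lay towards higher coordinates in 287 of 532 (53.9%, 49.6 to 58.2%), an interval that included 50%. In the first decile of the file this was 153 of 309 (49.5%, 43.8 to 55.2%). In deciles 2 to 10 it was 134 of 223 (60.1%, 53.3 to 66.6%), an interval above 50%. Among broad peaks that overlapped no other WDR5 peak it was 255 of 492 (51.8%, 47.3 to 56.3%), an interval that included 50%. No comparison of sides was planned. Whether these shares differ was not tested. WBM-MYC centres lay towards higher coordinates on 79 of 168 broad peaks (47.0%, 39.3 to 54.9%).

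Seen from the MYC lists, 566 of the 2527 WT-MYC peaks (22.4%) and 175 of the 690 WBM-MYC peaks (25.4%) lay on a broad WDR5 peak. Those WT-MYC peaks stood earlier in their own file, at a median line of 970, against 1312 for WT-MYC peaks on narrower WDR5 peaks only and 1371 for those on none. In the first 3 deciles of the WT-MYC list 30.0 to 31.6% lay on a broad WDR5 peak, and in the last 3 between 15.4 and 19.0%. For WBM-MYC the deciles followed no such order. The share on broad WDR5 peaks was lowest in the first (11 of 69, 15.9%, 8.24 to 26.7%), highest in deciles 2 and 4 (22 of 69 each, 31.9%, 21.2 to 44.2%) and 23.2% in the last, and all these intervals overlapped.

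Most broad peaks stood alone in the list, but late ones mostly overlapped an earlier call. Of the 1456, 162 (11.1%) shared at least 1 bp with another WDR5 peak, against 25.2% of narrower peaks. In deciles 1 to 5 this was true of 90 of 1352 broad peaks (6.66%), and in deciles 6 to 10 of 72 of 104 (69.2%). From decile 1 to decile 10 the share rose from 3.05% (20 of 655) to 12 of 12, while for narrower peaks it moved between 18.1 and 27.9%. In deciles 6 to 10, 69 of the 76 overlapping pairs (90.8%) had the partner earlier in the file, with a median of 588.5 bp in common. Exactly the same start or end as another WDR5 peak was found for 66 of the 104 late broad peaks (63.5%), for 45 of the 1352 early ones (3.33%) and for 2.83% of narrower peaks. Of the 66, 61 shared a start and 5 an end. The last broad peak, chr17:17739291-17740012 (722 bp, line 17094), begins on the same base as the 719-bp peak on line 1189. Likewise chr22:35653244-35654038 (795 bp, line 16944) starts with a 673-bp peak on line 3213, and chr10:97050517-97051250 (734 bp, line 16696) with a 460-bp peak on line 4933.

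Because of these repeats the 1456 broad peaks lay in 1414 separate regions once WDR5 peaks that share a base were merged. In 40 of these regions 2 broad peaks were merged, and in 1 region 3. Merging left the WT-MYC difference at 26.0 points (23.5 to 28.6), with 527 of 1414 regions with a broad peak and 1538 of 13654 others. Merging also built 1338 regions longer than the limit that hold no broad peak. Broad peaks that overlapped another WDR5 peak had WT-MYC in 24.7% (40 of 162, 18.3 to 32.1%), and the 1294 others in 38.0% (35.4 to 40.7%). In deciles 6 to 10 these shares were 19.4% (14 of 72) and 18.8% (6 of 32).

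Broad peaks also lay farther from other WDR5 peaks than narrower ones did. The gap to the nearest other WDR5 peak had a median of 28.3 kb for broad and 4.88 kb for narrower peaks, and another peak lay within 1 kb of 18.6 and 42.6%, respectively. From one broad peak to the nearest other broad peak the median gap was 261 kb. No random placement was made, so these gaps are not set against chance.

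Along the genome, 37 clusters of at least 3 broad peaks, with neighbouring starts at most 100 kb apart, held 123 broad peaks (8.45%), on 18 chromosomes. Another 154 pairs and 1025 single broad peaks made up the rest. After merging, 29 of the 37 clusters still had 3 or more separate regions. Clustered broad peaks carried WT-MYC in 38.2% (47 of 123, 29.6 to 47.4%), close to 36.5% for all broad peaks.

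No cluster held more than 5 broad peaks, and 4 clusters held that number. Around chr21:40685198-40818082 there were 5 separate ones, of 993, 756, 631, 647 and 653 bp from low to high coordinates, and WT-MYC lay on the first 2, with WBM-MYC on the first. At chr6:170101804-170152277 the 5 reduce to 3 regions, since chr6:170101804-170102646 and chr6:170101804-170102648 are near copies on lines 952 and 5289. At chr6:150184894-150326732 they also reduce to 3 regions, and no peak of either MYC list lay in that span of 142 kb. The fourth, chr1:154908847-155108610, had 4 regions and no MYC on its broad peaks, although 3 WT-MYC peaks lay within the span. Another 4 clusters held 4 broad peaks each. Of these, chr22:41809383-41844165 had 3 regions in 34.8 kb and no MYC. The other three had 4 regions each, with WT-MYC on 3 broad peaks at chr6:160114030-160211159, on 3 at chr16:30816663-30913990 and on 2 at chr17:7297838-7487547. WBM-MYC lay on 2 broad peaks in each of the clusters on chromosomes 6 and 16 and on none in that on chromosome 17. Among the first 3 broad peaks on chromosome 1, only chr1:935172-936439 (1268 bp, line 2767) had MYC, with both forms, while chr1:876979-877627 (649 bp) and chr1:1167558-1168182, just above the limit, had none.

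The share of WDR5 peaks that were broad differed between chromosomes. It was highest on chromosomes 21 (31 of 198, 15.7%, 10.9 to 21.5%), 13 (52 of 362, 14.4%), 5 (110 of 827, 13.3%), 6 (128 of 1026, 12.5%) and 1 (216 of 1873, 11.5%). It was lowest on X (10 of 433, 2.31%, 1.11 to 4.21%), 19 (48 of 1187, 4.04%, 2.996 to 5.33%) and 18 (11 of 269, 4.09%). Chromosome 19 had many peaks at the head of the file, 131 in the first decile, and 23 of these were broad (17.6%, against 38.1% of that decile as a whole). On chromosome X 14 peaks were in the first decile and 6 of them were broad.

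On each of the 23 chromosomes a larger share of broad than of narrower peaks carried WT-MYC. The broad share ran from 18.4% on chromosome 8 (7 of 38) to 24 of 48 on chromosome 19. For WBM-MYC the broad share was the larger on 22 of the 23, chromosome 14 being the exception with none of 41. Chromosome 1 held 44 of the 168 broad peaks with WBM-MYC. There 20.4% of broad peaks carried it (44 of 216), against 10.0% on the other chromosomes (124 of 1240), a difference of 10.4 points (5.22 to 16.4). Narrower peaks on chromosome 1 were also above those elsewhere, with WBM-MYC on 4.10 against 2.47% (1.64 points, 0.740 to 2.73) and WT-MYC on 15.8 against 10.9% (4.83 points, 3.07 to 6.73). For WT-MYC on broad peaks the shares were 41.7 and 35.6%, with an interval of the difference that included 0 (-0.902 to 13.2). Chromosome 21 had WBM-MYC on 9 of 31 broad peaks (29.0%, 14.2 to 48.0%), and its narrower peaks were also above those elsewhere, at 7.19 against 2.59% for WBM-MYC (4.59 points, 1.56 to 9.55) and 19.8 against 11.3% for WT-MYC (8.42 points, 3.06 to 15.1). Whether either chromosome differed more for broad than for narrower peaks was not tested. Both chromosomes were singled out after their values were seen. Without chromosome 1 the WBM-MYC difference between broad and narrower peaks was 7.53 points (5.96 to 9.34).

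**Figure D5:**
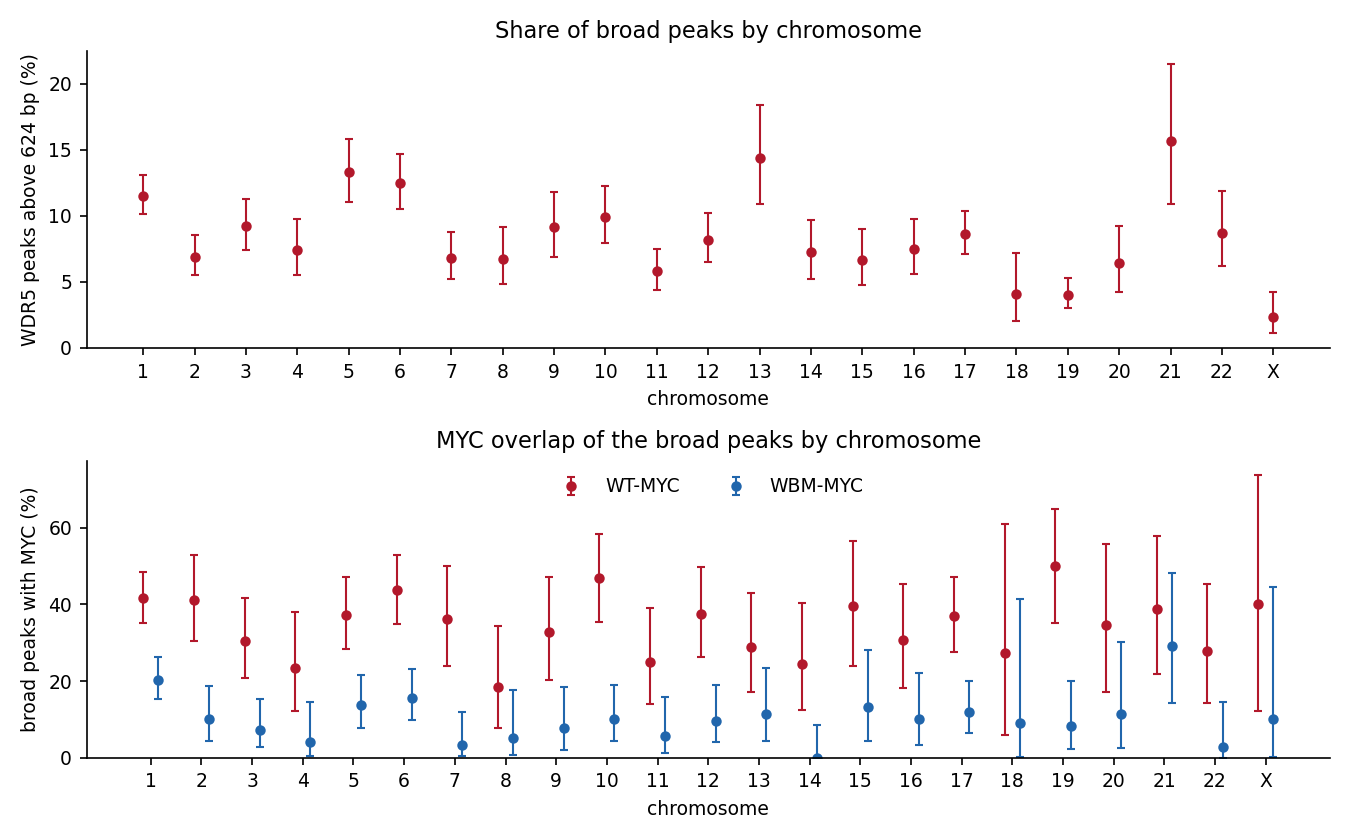
Top, share of WDR5 peaks above the limit on each chromosome. Bottom, share of those broad peaks with WT-MYC (red) or WBM-MYC (blue); bars in both panels are exact 95% intervals. Broad peaks range from 2.31% of WDR5 peaks on X to 15.7% on chromosome 21, and WBM-MYC lies on 20.4% of the broad peaks on chromosome 1 and 29.0% on chromosome 21.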

How the data were processed

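CASAVA 1.8.2 and Bowtie 0.12.7 (tools) and hg19 (build) are named in the submitters' processing notes. How peaks were called, with which threshold and controls, and whether replicates were pooled is not given in the sources used here. The authors deposited 3 lists of chromosome, start and end, with no score or depth. Starts were read as 0-based and printed 1-based, and a peak's width is end minus start. Broad peaks are those wider than 624 bp, and the equal window was 156 bp.

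Peaks shared a site when they had 1 bp in common. Shares have exact (Clopper-Pearson) 95% intervals, differences Newcombe intervals, and strata were combined by a Mantel-Haenszel difference with a Greenland-Robins variance. In simulations of independent peaks these 95% intervals covered the truth in 96% (Newcombe) and 94.75% (stratified) of 400 runs. The runs held no repeated or overlapping calls, so they cannot show the coverage for a list that has them. Overlaps were the same with bedtools 2.31.1. Python 3.11.15, scipy 1.17.1 and statsmodels 0.14.6 were used.

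The members, rules and tests were chosen with earlier results of these data known. Peaks named are the 10 widest, the first 5 and last 3 in the file, the first 3 on chromosome 1, the first 10 with both MYC forms, the widest 3 without MYC, and the clusters of most broad peaks. The rule allowed 5 clusters, but 4 tied for the fifth place, so all 8 are given, the last 3 added after their values were seen. Genes, sequences and motifs need an hg19 annotation or genome and were not analysed here. Vector and IgG libraries entered no comparison. Neighbouring and repeated calls are not independent, so intervals over peaks can be too narrow.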

Additional observations from a re-analysis of the deposited data

How the results depend on the processing

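Alternatives for the WT-MYC and WBM-MYC differences covered the overlap rule, equal windows, the width limit, the narrower peaks used for comparison, merged regions, autosomes, chromosomes 1 and 9, parts of the file and strata of file order. The interval stayed above 0 in 15 of 16 alternatives for WT-MYC, with values from 12.1 to 37.6 points, and in 16 of 16 for WBM-MYC, from 0.806 to 13.8 points. The exception was the inclusion of limit-width peaks among the broad ones, where the WT-MYC difference was 0.348 points. The share of WBM-MYC among WDR5 peaks with WT-MYC lost its call when stratified by decile, at 3.97 points. The median distance of WT-MYC centres was 113.5 bp on peaks wider than 800 bp, and 0.264 when divided by the distance from centre to edge of the WDR5 peak, which is another unit. Chosen after seeing the data were the leaving out of overlapping WDR5 peaks (27.2 and 9.56 points), of chromosome 1 (24.7 and 7.53 points), the restriction to deciles 6 to 10 (12.7 and 4.60 points), the combination of the WDR5 centre with strata, and the strata for WBM-MYC among WT-MYC carriers. No paired analysis was possible because each group has 1 peak list with no replicate numbers, and for the same reason no replicate could be left out. Depth is unknown, so a peak missing from a list may have been bound below its threshold.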
